A study of Mus musculus with 6 samples.

Results

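The genes of the major histocompatibility complex (MHC) and of antigen presentation were followed through the cells of the lower abdominal muscle (LAM). They were all rows of the deposited table whose name starts with H2-, the mouse MHC prefix, together with B2m, Cd74, Tap1, Tap2, Tapbp, Psmb8, Psmb9, Ciita, Nlrc5 and Ctss. This rule took 33 of 16494 genes, of which 28 lie on chromosome 17, and it used no measured value. By role, 3 encode the classical class I chains, 12 are nonclassical class I genes, 5 supply peptides to class I, 3 encode the classical class II chains, 7 serve class II loading and 2 encode transactivators. The last, H2-Ke6, carries the prefix for its position and encodes a hydroxysteroid dehydrogenase.

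The cells came from the LAM of 3 wild-type (WT) and 3 Aromhum male mice, all FVB/N and 9 to 10 weeks old, with 1 droplet library of 3' unique molecular identifier (UMI) counts from each mouse. Aromhum mice carry the human aromatase gene CYP19A1 under its own tissue-specific promoters, and their labels give scrotal hernia as the disease, whereas the WT littermates carry no transgene. The tissue was minced and digested with collagenase without a sort, so stromal, vascular, glial, muscle and immune cells were captured together and muscle fibres mostly as fragments. The comparison asks how this gene group differed between a herniated, aromatase-expressing LAM and the WT muscle in each kind of cell. Values of 3 mice are given in order of replicate number throughout.

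Class I molecules are made by nearly all nucleated cells and show peptides from the cell interior to CD8 T cells. The immunoproteasome cuts these peptides, the TAP transporter moves them into the endoplasmic reticulum, tapasin edits their loading, and beta-2-microglobulin completes the molecule. Class II molecules are made mainly by dendritic cells, macrophages and B cells, where the invariant chain Cd74 guards the groove until cathepsin S and the DM proteins exchange it for peptides taken up from outside. Interferon gamma raises both sets, class I through Nlrc5 and class II through Ciita, and can start class II synthesis in endothelial and other nonimmune cells.

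The libraries held 64958237 to 72876541 UMIs in the WT mice and 92652109 to 111826460 in the Aromhum mice. After removal of barcodes with fewer than 200 genes or 1000 UMIs, 59227 of 63647 barcodes were kept, and 53925 of them fell into cell types named by marker genes that held no MHC gene. The 11 types with at least 10 cells in every mouse are described. All 7 fibroblast and all 7 mesothelial markers in the table were highest in their own type, and 6 of 7 in endothelial cells, 10 of 12 in macrophage/monocyte cells and 10 of 14 in dendritic-like cells. The types were named from these same markers, so these counts describe the naming and are no independent check of it. The make-up of the suspension differed, with fibroblast-like cells at 28.8% and 45.8% of the kept cells (means of the WT and the Aromhum mice), endothelial cells at 34.0% and 17.5%, macrophage/monocyte cells at 1.76% and 6.64% and mesothelial cells at 1.38% and 7.01%. The macrophage/monocyte share overlapped between the groups, with Arom3 at 1.68% below WT1 at 2.50%. CYP19A1 was listed at 0 in all 3 WT libraries and at 7.03, 7.12 and 8.50 counts per 1e+06 UMIs (CPM) in the Aromhum libraries. Of all barcode sequences, 471 occurred in more than 1 library, in 943 kept cells. The table itself lacks genes seen in few barcodes of a library, so a gene listed at 0 there may have been present in up to about 20 barcodes.

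Several class I members share short elements just before their transcription start, and the promoters of 26 of the 33 genes were found in the RefSeq table (GRCm38.p6). Over the 200 bases before the start, both strands were searched for GGGATTCCC, the core of the kappa B element, for TTTCNNTTC, the core of the interferon-stimulated response element, and for CTGATTGG, a Y box of the kind that class II and many class I promoters contain. No match of 1 word overlapped a match of another in the promoters printed here. Of all 32851 promoters, 0.213% held the first, 5.0% the second and 3.54% the third. The members with the first were H2-K1, H2-D1, H2-Q6 and H2-Q7, and those with the second were these 4 together with H2-Q4, H2-Q10, H2-M3 and Ctss. Matches of the third word were found for 9 members, H2-Aa, H2-Eb1 and H2-M9 among them. In a class I promoter such a match was not shown to be its Y box. A match is a match of letters and was not tied to binding in these cells.

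The promoters of the members on which the results below turn are printed 5' to 3' on the gene's own strand, ending at the base before the start, with the matched elements in capitals. They lie on chromosome 17 of GRCm38 at chr17:34000348-34000547 on the minus strand (H2-K1), chr17:35262894-35263093 on the plus strand (H2-D1), chr17:35379417-35379616 on the plus strand (H2-Q4), chr17:35424650-35424849 on the plus strand (H2-Q6), chr17:35438955-35439154 on the plus strand (H2-Q7), chr17:34287824-34288023 on the minus strand (H2-Aa) and chr17:36642664-36642863 on the minus strand (H2-M9).
H2-K1: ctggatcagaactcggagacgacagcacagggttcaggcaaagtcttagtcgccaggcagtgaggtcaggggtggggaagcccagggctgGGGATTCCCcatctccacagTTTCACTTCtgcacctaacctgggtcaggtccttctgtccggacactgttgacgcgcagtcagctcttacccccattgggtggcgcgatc
H2-D1: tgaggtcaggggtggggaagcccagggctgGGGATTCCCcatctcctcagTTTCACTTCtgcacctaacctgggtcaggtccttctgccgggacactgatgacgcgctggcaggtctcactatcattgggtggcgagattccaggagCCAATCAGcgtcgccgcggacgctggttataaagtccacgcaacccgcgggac
H2-Q4: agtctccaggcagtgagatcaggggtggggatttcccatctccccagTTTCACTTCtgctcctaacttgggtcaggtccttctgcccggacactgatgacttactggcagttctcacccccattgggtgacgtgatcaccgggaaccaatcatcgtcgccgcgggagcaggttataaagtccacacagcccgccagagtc
H2-Q6: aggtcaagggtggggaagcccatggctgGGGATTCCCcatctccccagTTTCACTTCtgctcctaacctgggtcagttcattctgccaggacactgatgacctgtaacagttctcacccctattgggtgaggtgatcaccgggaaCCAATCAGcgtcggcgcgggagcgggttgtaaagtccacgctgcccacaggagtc
H2-Q7: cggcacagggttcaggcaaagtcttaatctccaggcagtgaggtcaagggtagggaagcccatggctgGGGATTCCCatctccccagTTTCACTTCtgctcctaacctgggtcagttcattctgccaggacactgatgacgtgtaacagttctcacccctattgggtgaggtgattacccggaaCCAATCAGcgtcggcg
H2-Aa: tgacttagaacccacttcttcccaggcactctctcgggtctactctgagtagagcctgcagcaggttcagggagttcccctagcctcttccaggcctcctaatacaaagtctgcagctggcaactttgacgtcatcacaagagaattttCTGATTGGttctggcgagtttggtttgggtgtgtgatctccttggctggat
H2-M9: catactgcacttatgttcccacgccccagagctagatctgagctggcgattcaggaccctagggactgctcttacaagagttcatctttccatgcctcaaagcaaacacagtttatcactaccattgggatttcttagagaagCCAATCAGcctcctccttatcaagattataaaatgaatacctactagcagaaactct

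Read from the start site backwards, H2-K1 carries the kappa B core from base -110 and the interferon core from base -90. H2-D1 has the same pair from -170 and -150, followed by the third word on the other strand from -53. H2-Q6 resembles H2-D1, with the 3 words from -172, -152 and -55, and H2-Q7 has them from -132, -113 and -16. In H2-Q4 the interferon core from -153 was the only match to the 3 words, and in H2-Aa and H2-M9 the third word alone was found, from -51 and -57.

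The 11 cell types were first ordered by the level of each member, as a description over all 6 mice. The heavy chain gene H2-K1 reached 2449 ± 297 CPM (SD, n = 6 mice) in T cells, 1895 ± 227 CPM in endothelial cells, 1808 ± 111 CPM in dendritic-like cells and 1741 ± 378 CPM in macrophage/monocyte cells, and neighbours among these 4 overlapped. None of the 4 overlapped the next type, mesothelial cells at 817 ± 202 CPM. Fibroblast-like cells had 523 ± 70.8 CPM and myonuclei, the muscle fibre fragments, 198 ± 44.0 CPM, again without overlap. H2-D1, the other classical heavy chain, gave the same upper 4 types, and its lowest level was likewise in myonuclei at 428 ± 86.0 CPM.

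Endothelial cells stood high for most of the class I route. Psmb8, an immunoproteasome subunit, was at 626 ± 157 CPM in dendritic-like, 341 ± 84.1 CPM in T, 267 ± 44.7 CPM in endothelial and 33.5 ± 10.2 CPM in fibroblast-like cells. For its partner subunit Psmb9 the values were 130.3 ± 86.1 CPM in dendritic-like, 85.9 ± 28.8 CPM in endothelial and 8.18 ± 2.02 CPM in fibroblast-like cells. Tap1, one chain of the peptide transporter, was at 95.3 ± 35.1 CPM, 87.1 ± 11.6 CPM and 13.9 ± 5.10 CPM in the same order of types. Tapasin (Tapbp) differed from this order, with mesothelial cells at 292 ± 29.4 CPM followed by endothelial cells at 181 ± 11.7 CPM, without overlap between them. T cells ran from 50.7 to 199 CPM and so overlapped endothelial cells, and the other types lay below endothelial cells.

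For every class II chain and loading gene but H2-Oa and H2-Ob, dendritic-like and macrophage/monocyte cells lay above the other 9 of these 11 types, T cells included, without overlap. Cd74 was at 34914 ± 2556 CPM in dendritic-like and 19437 ± 3483 CPM in macrophage/monocyte cells, and mesothelial cells followed at 218 ± 271 CPM. The remaining types ranged down to 8.72 ± 7.04 CPM in fibroblast-like cells. The beta chain H2-Ab1 repeated the first 3 places with 13219 ± 604 CPM, 6735 ± 1409 CPM and 118 ± 101 CPM. Ciita, the class II transactivator, was at 116 ± 41.3 CPM in dendritic-like and 36.5 ± 14.2 CPM in macrophage/monocyte cells and at no more than 0.678 CPM on average elsewhere. Ctss, which cuts the invariant chain, was the one class II member with macrophage/monocyte cells on top, at 1524 ± 577 CPM against 692 ± 157 CPM in dendritic-like cells. Nlrc5, the class I counterpart of Ciita, was spread over T cells (11.5 ± 12.2 CPM), endothelial cells (10.1 ± 2.71 CPM) and glial cells (8.06 ± 4.25 CPM), whose ranges overlapped. H2-M9 was found in one type, smooth muscle and pericyte cells, at 173 ± 69.6 CPM, and at no more than 1.23 CPM in any other. H2-Ke6 was at 48.9 ± 7.58 CPM in mesothelial cells and 46.2 ± 9.12 CPM in myonuclei, whose ranges overlapped.

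**Figure D1:**
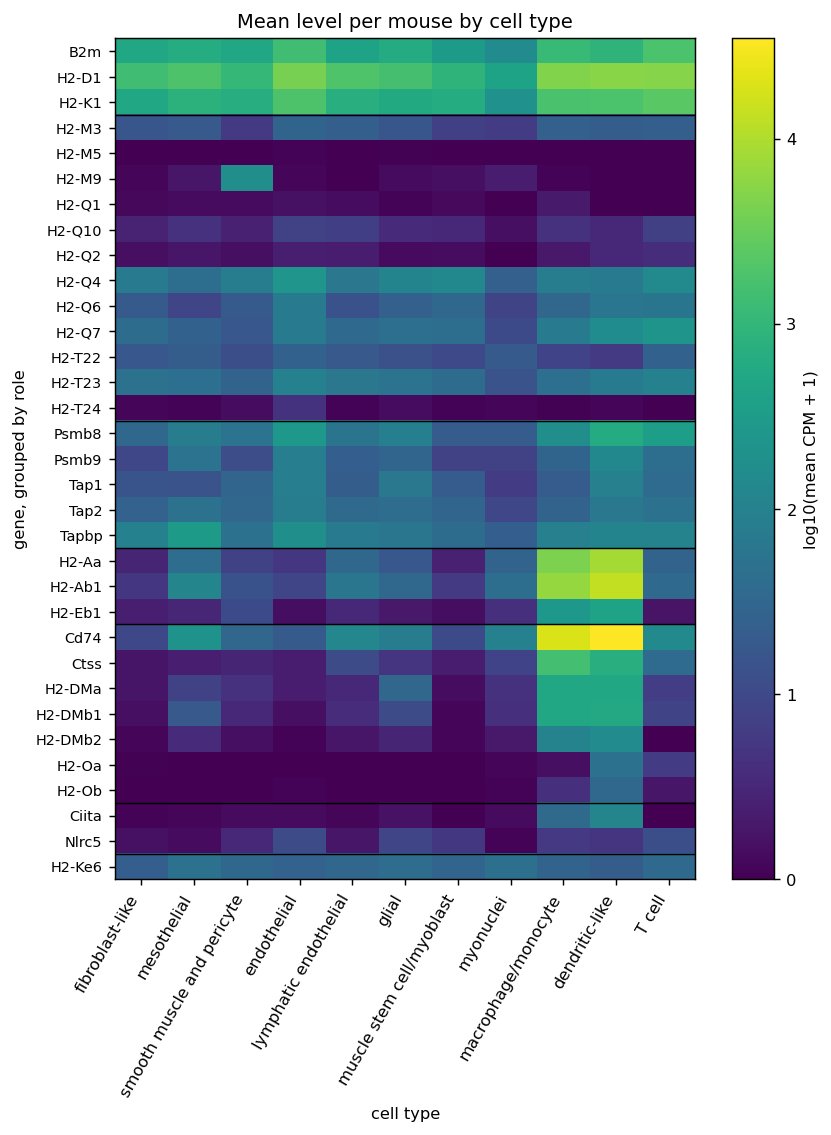
Level of each of the 33 members (rows, by role) in the 11 cell types (columns), as log10 of the mean CPM over 6 mice plus 1. The class II rows are high in dendritic-like and macrophage/monocyte cells and the class I rows also in endothelial and T cells, and H2-M9 stands alone in smooth muscle and pericyte cells.

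Genotypes were then compared within each cell type on UMI counts summed per mouse, by the quasi-likelihood test of edgeR. P values were adjusted by Benjamini and Hochberg's method across all genes tested, and a gene was called at an adjusted p under 0.05. Fold changes are log2 of Aromhum over WT. Overlap between the groups describes the printed values of a gene, and the share of all genes without overlap was not counted. A cell type was tested where every mouse had at least 20 cells, which held for 9 types and left out dendritic-like and T cells. Reads may be divided between genes that share sequence. Of the 90-base windows in the last 500 bases, 26.5% in H2-T22 also occur in its paralog H2-T10. For H2-DMb1, 12.7% also occur in H2-DMb2. In H2-Q4 9.49% and in H2-Q6 10.9% occur in other annotated genes, and the leading ones, such as Olfr552 and Cd59b, are not MHC genes. In H2-T23 13.4% are shared, with Rab33b, Hook2 and H2-T-ps. FVB/N alleles may also differ from the reference to which the reads were assigned, and this was not tested.

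**Figure D2:**
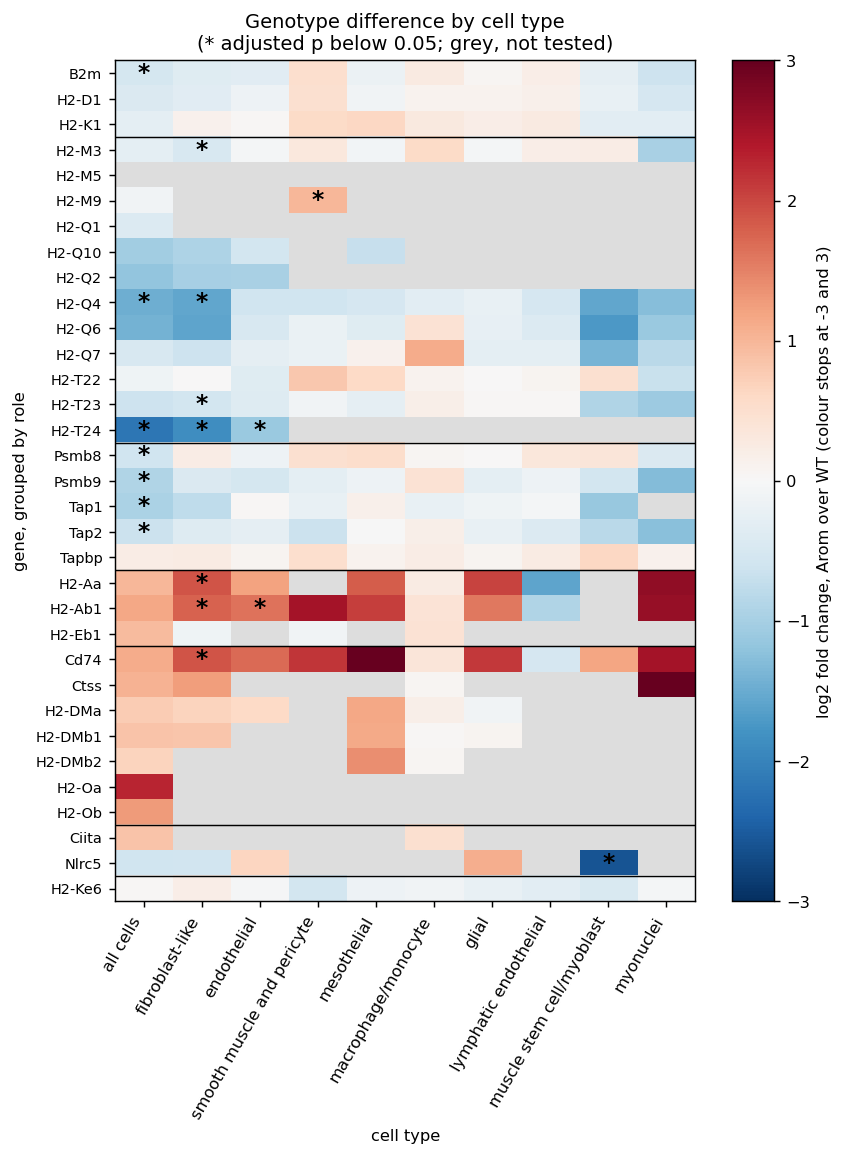
Log2 fold change of Aromhum over WT for each member (rows) in all cells and in the 9 tested types (columns), with blue below 0 and red above 0. An asterisk marks an adjusted p under 0.05, grey a gene that was not tested, and colours stop at 3 in either direction.

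In fibroblast-like cells, 4 nonclassical class I genes fell and 3 class II genes rose in the Aromhum mice. The genes that fell were H2-Q4, H2-T24, H2-T23 and H2-M3, and those that rose were Cd74, H2-Ab1 and H2-Aa. Of the 26 members tested, 7 were called, beside 13.1% of all genes in this comparison (7.25% that rose and 5.82% that fell). By role, 0 of 3 classical class I, 4 of 9 nonclassical class I, 0 of 5 peptide supply, 2 of 3 classical class II and 1 of 4 class II loading genes passed. The median log2 fold change was -0.93 over the nonclassical class I genes and 1.78 over the classical class II genes, beside 0.01 over all genes tested.

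H2-Q4, a nonclassical class I heavy chain, was at 92.6, 132 and 113 CPM in the WT mice and 29.5, 28.7 and 58.2 CPM in the Aromhum mice. All 3 Aromhum mice lay below all WT mice, with Arom3 nearest to them (log2 fold change -1.57 ± 0.26 SE, adjusted p = 0.022). The share of fibroblast-like cells with at least 1 H2-Q4 UMI, after each cell was thinned to 1000 UMIs, was 8.50, 10.4 and 9.60% of the cells in the WT against 4.08, 2.91 and 6.10% in the Aromhum mice. H2-Q6, one of the genes of the Qa-2 antigen, had the same log2 fold change with more spread, at 19.4, 28.5 and 32.8 CPM in the WT and 6.32, 5.12 and 16.5 CPM in the Aromhum mice, and just missed the threshold in edgeR (log2 fold change -1.57 ± 0.42 SE, adjusted p = 0.051). H2-Q6 was called by DESeq2, with the replicate block and without Arom3. Its neighbour H2-Q7, also a Qa-2 gene, overlapped between the groups (log2 fold change -0.63 ± 0.32 SE, adjusted p = 0.22).

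H2-T23 encodes Qa-1, the ligand of the inhibitory receptor NKG2A, and was at 56.6, 59.1 and 52.9 CPM in the WT mice and 45.2, 31.7 and 40.3 CPM in the Aromhum mice. The groups did not overlap and the gene passed narrowly (log2 fold change -0.55 ± 0.14 SE, adjusted p = 0.0496). H2-M3, which presents formylated bacterial peptides, was at 19.1, 17.8 and 16.0 CPM in WT1 to WT3 against 13.1, 12.1 and 13.5 CPM in Arom1 to Arom3 (log2 fold change -0.48 ± 0.11 SE, adjusted p = 0.038), with no overlap. H2-T24 was rare, at 0.279, 0.380 and 0.360 CPM in the WT mice and 0.107, 0.0842 and 0.0809 CPM in the Aromhum mice, which rests on 24 UMIs in the WT and 17 in the Aromhum libraries (log2 fold change -1.87 ± 0.42 SE, adjusted p = 0.037). DESeq2 gave H2-T24 an adjusted p of 0.059. Neither H2-T23 nor H2-T24 was called with the replicate block or without the filter on low counts.

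None of the 3 classical class I chains was called in edgeR, and DESeq2 called B2m among 8 members, beside 20.6% of all genes. B2m was at 578, 608 and 572 CPM in the WT and 476, 449.7 and 464 CPM in the Aromhum mice, with no overlap and a log2 fold change of -0.36 that missed the threshold in edgeR (adjusted p = 0.055). H2-D1 was at 1591, 1583 and 1561 CPM in the WT mice and 1405, 1027 and 1350.0 CPM in the Aromhum mice (log2 fold change -0.35 ± 0.15 SE, adjusted p = 0.16). H2-K1 was at 544, 478 and 467 CPM in WT1 to WT3 against 644, 548 and 458 CPM in Arom1 to Arom3, fully overlapping, with a log2 fold change of 0.13. Of the peptide supply genes, Tap1 was at 22.4, 14.6 and 14.7 CPM in the WT mice and 12.9, 6.78 and 11.7 CPM in the Aromhum mice (adjusted p = 0.12) and Psmb8 at 42.6, 26.1 and 23.5 CPM in the WT and 46.8, 38.1 and 24.1 CPM in the Aromhum mice (adjusted p = 0.68). H2-Ke6, the dehydrogenase, had a log2 fold change of 0.19 (adjusted p = 0.24).

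The decrease of H2-Q4 was measured again inside the fibroblast clusters, whose mean shares differed between the groups. The Ren1 and Nppc cluster made up 9.06% of the fibroblast-like cells in the WT mice and 26.3% in the Aromhum mice, and the Dmkn cluster 7.98% and 15.8%. The Dmkn share overlapped, with Arom3 at 8.90% below WT1 at 13.4%. The Comp and Mup5 cluster made up 29.5% and 8.51%. The Saa3 and Mmp3 cluster, at 5.20% and 16.9%, was not fitted because WT2 had 5 of its cells. In the Ren1 and Nppc cluster H2-Q4 was at 92.9, 221 and 94.7 CPM in the WT mice and 16.8, 30.6 and 47.3 CPM in the Aromhum mice (log2 fold change -2.12 ± 0.43 SE, adjusted p = 0.023). In the Dmkn cluster it was at 71.8, 87.0 and 72.0 CPM in the WT mice and 14.6, 14.2 and 30.3 CPM in the Aromhum mice (log2 fold change -2.01 ± 0.24 SE, adjusted p = 0.029), and in the Myoc and Cilp cluster, which held 34.5% and 25.4% of the cells, at 98.8, 121 and 114 CPM in the WT mice and 62.0, 48.4 and 68.0 CPM in the Aromhum mice (log2 fold change -0.88 ± 0.13 SE, adjusted p = 0.0089). In all 3 the groups did not overlap. H2-Q6 was also called in these 3 clusters, with log2 fold changes of -2.04, -2.17 and -0.91, and in the Comp and Mup5 cluster and the other 2 fitted clusters H2-Q4 was at -0.76, -0.91 and -0.07 without a call. These fits were added after the data were seen. Of all genes tested in a cluster, 11.8% of genes were called in the Ren1 and Nppc, 0.545% in the Dmkn, 4.76% in the Myoc and Cilp cluster and 0.346%, 1.3% and 0.0664% in the other 3 in that order.

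Class II genes rose in fibroblast-like cells from a very low level. Cd74 was at 4.22, 4.72 and 2.04 CPM in the WT mice and 21.3, 11.6 and 8.42 CPM in the Aromhum mice (log2 fold change 1.88 ± 0.44 SE, adjusted p = 0.039). H2-Ab1 was at 2.39, 2.02 and 1.14 CPM in WT1 to WT3 against 9.07, 6.22 and 4.43 CPM in Arom1 to Arom3 (log2 fold change 1.78 ± 0.37 SE, adjusted p = 0.030), and H2-Aa, its alpha chain partner, at 1.05, 0.886 and 0.540 CPM in the WT mice and 4.92, 2.67 and 1.88 CPM in the Aromhum mice (log2 fold change 1.88 ± 0.45 SE, adjusted p = 0.041). In all 3 genes, which were called on these same values, every Aromhum mouse was above every WT mouse. Inside the Dmkn cluster the log2 fold change of Cd74 was -0.20, and with clusters given equal weight (limma) Cd74 was not called (adjusted p = 0.10) while H2-Ab1 and H2-Aa were. H2-Eb1, the I-E beta chain, overlapped fully, at 1.18, 1.56 and 1.56 CPM in the WT and 1.26, 0.870 and 1.90 CPM in the Aromhum mice. Few cells carried these UMIs: after thinning, Cd74 was seen in 0.418, 0.565 and 0.181% of the cells in the WT against 1.71, 1.04 and 0.482% in the Aromhum mice, and the 1% of cells with most Cd74 held between 43.8% and 66.6% of its UMIs in a mouse.

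Macrophage markers moved with the class II genes. The 12 macrophage/monocyte markers, all seen in fibroblast-like cells, summed to 12.7, 11.3 and 14 CPM in the WT mice and 39.6, 20.8 and 16.2 CPM in the Aromhum mice, without overlap. The marker Lyz2 (lysozyme) was at 3.94, 4.47 and 5.70 CPM in the WT mice and 18.7, 6.16 and 7.61 CPM in the Aromhum mice. For each Cd74 UMI there were 0.934, 0.946 and 2.79 Lyz2 UMIs in the WT and 0.875, 0.531 and 0.904 in the Aromhum mice. Macrophage/monocyte cells had 0.955, 0.920 and 1.11 in the WT and 0.754, 0.438 and 1.01 in the Aromhum mice. The 14 dendritic-like markers summed to 469, 412 and 435 CPM in the WT mice and 454, 466 and 419 CPM in the Aromhum mice, which overlapped. In endothelial cells the same list summed to 94.3 to 125 CPM. At the level in fibroblast-like cells a small dendritic part could not be seen in this sum. Macrophage/monocyte cells, with a Cd74 level of 19437 ± 3483 CPM, made up 1.76% of the kept cells in the WT mice and 6.64% in the Aromhum mice. Their part in the fibroblast class II values was not tested.

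None of the 7 calls in fibroblast-like cells held in every alternative. All were lost when WT1, WT2, WT3, Arom1 or Arom2 was left out, when 0 members were called, and 11 members were called without Arom3, beside 29.6% of all genes. With only the cells inside the study's limits on genes, UMIs and mitochondrial share, 0 members and 1 of 10907 genes were called, H2-Q4 was at -1.15 and H2-M3 at 0.054.

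**Figure D3:**
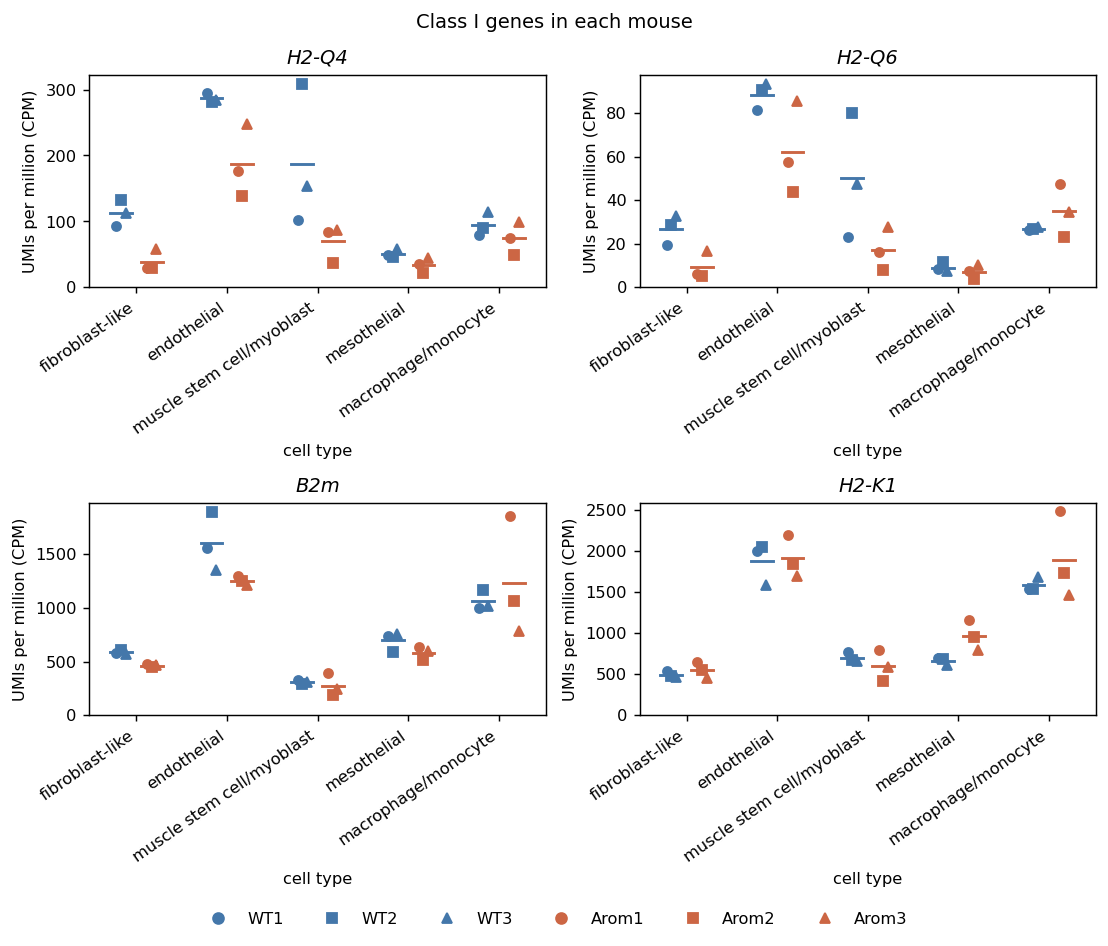
CPM of H2-Q4, H2-Q6, B2m and H2-K1 in each mouse, for 5 cell types along the horizontal axis of each panel. Points are mice (blue WT, orange Aromhum, with circle, square and triangle for replicates 1, 2 and 3) and bars are group means, and the H2-Q4 points of fibroblast-like cells lie at 92.6 to 132 CPM in the WT and 28.7 to 58.2 CPM in the Aromhum mice.

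In endothelial cells, H2-Ab1 rose and H2-T24 fell, and these were the only 2 of 23 members called, beside 14.8% of all genes. H2-Ab1 was at 5.38, 3.98 and 2.41 CPM in WT1 to WT3 against 17.9, 14.1 and 3.99 CPM in Arom1 to Arom3, where Arom1 and Arom2 lay above the WT mice and Arom3 among them (log2 fold change 1.62 ± 0.48 SE, adjusted p = 0.048). H2-T24 was at 3.88, 6.20 and 5.22 CPM in the WT mice and 1.52, 2.13 and 3.16 CPM in the Aromhum mice, without overlap (log2 fold change -1.12 ± 0.29 SE, adjusted p = 0.032). All 9 nonclassical class I genes tested had a log2 fold change below 0, with a median of -0.48 beside -0.01 over all genes.

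H2-Q4 in endothelial cells was at 295, 282 and 285 CPM in the WT and 176, 139 and 247 CPM in the Aromhum mice, with no overlap, and did not pass (log2 fold change -0.59 ± 0.19 SE, adjusted p = 0.063). H2-K1 was at 1998, 2052 and 1588 CPM in the WT mice and 2190.0, 1843 and 1700.5 CPM in the Aromhum mice and B2m at 1555, 1893 and 1349 CPM in WT1 to WT3 against 1297, 1247 and 1211 CPM in Arom1 to Arom3, with adjusted p = 0.88 and 0.12. For Psmb9 the values were 105, 135 and 65.2 CPM in the WT mice and 80.3, 67.1 and 62.6 CPM in the Aromhum mice, which overlapped (adjusted p = 0.13). Nlrc5 was at 10.5, 7.47 and 6.15 CPM in the WT and 12.5, 12 and 12.3 CPM in the Aromhum mice, with all Aromhum mice above all WT mice (log2 fold change 0.64 ± 0.20 SE, adjusted p = 0.055). Within the 4 endothelial clusters the log2 fold changes of Nlrc5 ran from -0.49 to -0.02. The cluster led by the venular genes Selp and Ackr1, with Nlrc5 at 17.6 CPM in the WT and 19.0 CPM in the Aromhum mice, made up 13.2% of endothelial cells in the WT mice and 38.8% in the Aromhum mice.

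Cd74 in endothelial cells was at 6.97, 11.0 and 7.68 CPM in the WT mice and 51.6, 24.9 and 6.32 CPM in the Aromhum mice, high in Arom1 and Arom2 and below the WT mice in Arom3, and was not called (log2 fold change 1.69 ± 0.56 SE, adjusted p = 0.069). The 12 macrophage/monocyte markers summed to 23.2, 16.5 and 13.9 CPM in the WT mice and 66.7, 34.5 and 19.9 CPM in the Aromhum mice in the same cells, and their part in the class II values was not tested. Same-numbered mice deviated together in this fit, and with the replicate number as a block 7 members were called, Cd74, H2-Ab1, H2-Q4, H2-Q6, H2-T24, Nlrc5 and Psmb9, beside 24.2% of all genes called in that fit. H2-Ab1 was lost when any of WT1, WT2, WT3, Arom1 or Arom2 was left out, and H2-T24 likewise except without WT1, with 0 to 2 members called. Without Arom3, 8 of 25 members were called, both among them, beside 14.8% of all genes. With clusters given equal weight (limma) neither was called and H2-Q4 was, beside 1.86% of all genes. Within the study's cell limits 0 members were called, beside 7.86% of all genes. DESeq2 called H2-Q4 and H2-T24, beside 14.6% of all genes.

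The difference between the genotype effects in the 2 largest cell types was tested directly, with the mouse as a term. In this test 3 of 27 members passed, beside 11.6% of all genes. The sums cover whole types, whose cluster shares differed between the groups, and the difference was not tested within clusters. The log2 fold change was lower in fibroblast-like than in endothelial cells for H2-Q4 (0.98 ± 0.16 SE on the log2 scale, adjusted p = 0.010) and for H2-Q6 (1.15 ± 0.20 SE on the log2 scale, adjusted p = 0.011). Nlrc5 also differed (1.16 ± 0.26 SE on the log2 scale, adjusted p = 0.025), but in fibroblast-like cells it was only at 0.584 ± 0.208 CPM. Against macrophage/monocyte cells, H2-Q4 was the 1 of 29 members that passed (1.45 ± 0.26 SE on the log2 scale, adjusted p = 0.037), beside 0.4% of all genes. It was no longer called there when any of WT1, WT2, WT3, Arom1 or Arom2 was left out, whereas H2-Q4 between endothelial and fibroblast-like cells passed in all 6 of these fits. Within the study's cell limits, 0 members passed in the endothelial test, with H2-Q4 at 0.65, and 3 others passed in the macrophage/monocyte test, with H2-Q4 at 0.72.

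In muscle stem cell/myoblast cells Nlrc5 fell, the 1 member of 17 called in edgeR, beside 3.13% of all genes. It was at 10.9, 5.18 and 6.34 CPM in WT1 to WT3 against 1.21, 0.863 and 1.76 CPM in Arom1 to Arom3, without overlap, on 50 UMIs in the WT and 7 in the Aromhum libraries (log2 fold change -2.59 ± 0.50 SE, adjusted p = 0.030). Several class I genes lay lower without a call in the unblocked edgeR fit with the filter on low counts. H2-Q4 was at 101, 308 and 153 CPM in the WT mice and 84.4, 37.5 and 87.2 CPM in the Aromhum mice, where WT2 stood far above all others (log2 fold change -1.55 ± 0.43 SE, adjusted p = 0.074).

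The log2 fold changes in these cells were -1.72 for H2-Q6, -1.39 for H2-Q7, -0.91 for H2-T23 and -1.14 for Tap1, with adjusted p from 0.060 to 0.091. Tapbp ran the other way at 0.61 (adjusted p = 0.085). Same-numbered mice deviated together here too, and with the replicate block 6 members were called, Cd74, H2-Q6, H2-Q7, H2-T23, Nlrc5 and Tap1, beside 7.36% of all genes called in that fit. DESeq2, without a block, called 4, H2-Q7, H2-T23, Nlrc5 and Tap1, beside 4.33% of all genes. Without the filter on low counts edgeR called 6, H2-Q4, H2-Q6, H2-Q7, H2-T23, Nlrc5 and Tap1, beside 5.23%. The 12 macrophage/monocyte markers summed to 13.6, 9.75 and 8.78 CPM in the WT mice and 33.1, 26.3 and 16.4 CPM in the Aromhum mice in these cells, with Adgre1, Fcgr1 and Ly6c2 at 0, and their part in the Cd74 value was not tested. The Nlrc5 call was lost without WT1, WT2, Arom1 or Arom2, kept without Arom3 and not tested without WT3, with log2 fold changes from -2.93 to -2.27. Within the study's cell limits Nlrc5 was too rare to test, and none of the 7 members tested was called.

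Muscle fibre fragments (myonuclei) had 0 of 18 members called, beside 0.0545% of all genes, and 12 at an unadjusted p under 0.05, beside 8.3% of all genes. Ctss was listed at 0.766, 0.958 and 0 CPM in the WT and 12.6, 7.95 and 20.6 CPM in the Aromhum mice, without overlap (log2 fold change 4.09 ± 0.72 SE, adjusted p = 0.082). It was called with the replicate block in edgeR, by DESeq2 and without the filter on low counts, where H2-Aa was called too. Of all genes, 1.85%, 0.79% and 0.819% were called in these fits, in that order. The macrophage/monocyte markers summed to 19.1, 47.9 and 9.48 CPM in the WT mice and 274, 199 and 161 CPM in the Aromhum mice in the same fragments, with Fcgr1 and Ly6c2 at 0. The part of macrophage RNA in the Ctss value was not tested. Glial cells (0 of 21, beside 0.56%) and lymphatic endothelial cells (0 of 18, beside 0.0%) had no member called in edgeR, and 3 and 0 members at an unadjusted p under 0.05, beside 10.3% and 6.82% of all genes.

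Mesothelial cells, the lining of the body cavity, had the highest mean level of Cd74, H2-Ab1 and H2-Aa among nonimmune cells, though not of H2-Eb1 or H2-DMa, and wide spread between mice. No member was called of 22, beside 0.283% of all genes, and 8 had an unadjusted p under 0.05, beside 20.6% of all genes. The cells numbered 144, 165 and 67 in WT1 to WT3 and 635, 982 and 665 in Arom1 to Arom3. Cd74 was at 25.4, 3.96 and 129 CPM in the WT mice and 725, 313 and 110.2 CPM in the Aromhum mice, with Arom3 below WT3 (log2 fold change 3.10 ± 1.01 SE, adjusted p = 0.15). The WT3 value rests on 120 UMIs, of which 98.3% were in the 1% of its 67 cells with most Cd74, a single cell. H2-Ab1 was at 67.2, 14.1 and 65.4 CPM in WT1 to WT3 against 304, 135 and 123 CPM in Arom1 to Arom3, and here every Aromhum mouse was above every WT mouse (log2 fold change 2.08 ± 0.55 SE, adjusted p = 0.097). H2-Aa was at 19.9, 3.08 and 39.7 CPM in the WT mice and 89.4, 39.1 and 53.2 CPM in the Aromhum mice (log2 fold change 1.82 ± 0.62 SE, adjusted p = 0.16), with Arom2 just below WT3.

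Class II UMIs were seen in many mesothelial cells of Arom1 and Arom2 and in fewer of Arom3. After thinning to 1000 UMIs, Cd74 was seen in 2.78, 0.606 and 1.49% of the cells in the WT against 35.1, 19.7 and 4.06% in the Aromhum mice, and without thinning in 11.1, 4.85 and 4.48% of the cells in the WT against 70.6, 55.1 and 19.8% in the Aromhum mice. The 1% of mesothelial cells with most Cd74 held 15.9% and 18.0% of its UMIs in Arom1 and Arom2 and 55.6% in Arom3. The thinned shares in fibroblast-like cells of the same libraries were at most 1.71%, and median depths per library were 7606.5 to 12938 UMIs in mesothelial and 8581 to 12549 UMIs in fibroblast-like cells. No kept cell was too shallow for thinning. H2-Ab1 was seen in 5.56, 1.21 and 1.49% of the cells in the WT against 24.6, 15.1 and 6.32% in the Aromhum mice after thinning. Lyz2 was seen in 1.39, 0 and 1.49% of the cells in the WT against 1.73, 0.713 and 0.451% in the Aromhum mice, and the macrophage/monocyte list summed to 37.7, 33.4 and 85.8 CPM in the WT mice and 68.2, 37.6 and 31.8 CPM in the Aromhum mice, which overlapped. There were 0.035, 0.015 and 0.032 Lyz2 UMIs for each Cd74 UMI in mesothelial cells of the Aromhum mice, where macrophage/monocyte cells of the same mice had 0.75, 0.44 and 1.01. Ciita was listed at 0 in the WT mice and at 0.488, 0.152 and 0.391 CPM in the Aromhum mice.

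Dendritic-like cells had 0.050 to 0.099 Lyz2 UMIs per Cd74 UMI. Their 14 markers summed in mesothelial cells to 96.0, 67.3 and 124 CPM in the WT mice and 179, 174 and 120.1 CPM in the Aromhum mice, with Flt3, Xcr1, Ccl22 and Siglech at 0. The part of macrophage/monocyte or dendritic-like RNA in the mesothelial values was not tested. Of class I, H2-K1 was at 699.8, 686 and 616 CPM in the WT and 1157, 948 and 792 CPM in the Aromhum mice, without overlap (log2 fold change 0.61 ± 0.18 SE, adjusted p = 0.11). DESeq2 called H2-K1 as the 1 member of 22 in this type, beside 5.51% of all genes. Without Arom3, 5 of 20 members were called in edgeR, beside 13.3% of all genes. The lowest WT group size, 67 cells in WT3, limits the precision of these values.

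**Figure D4:**
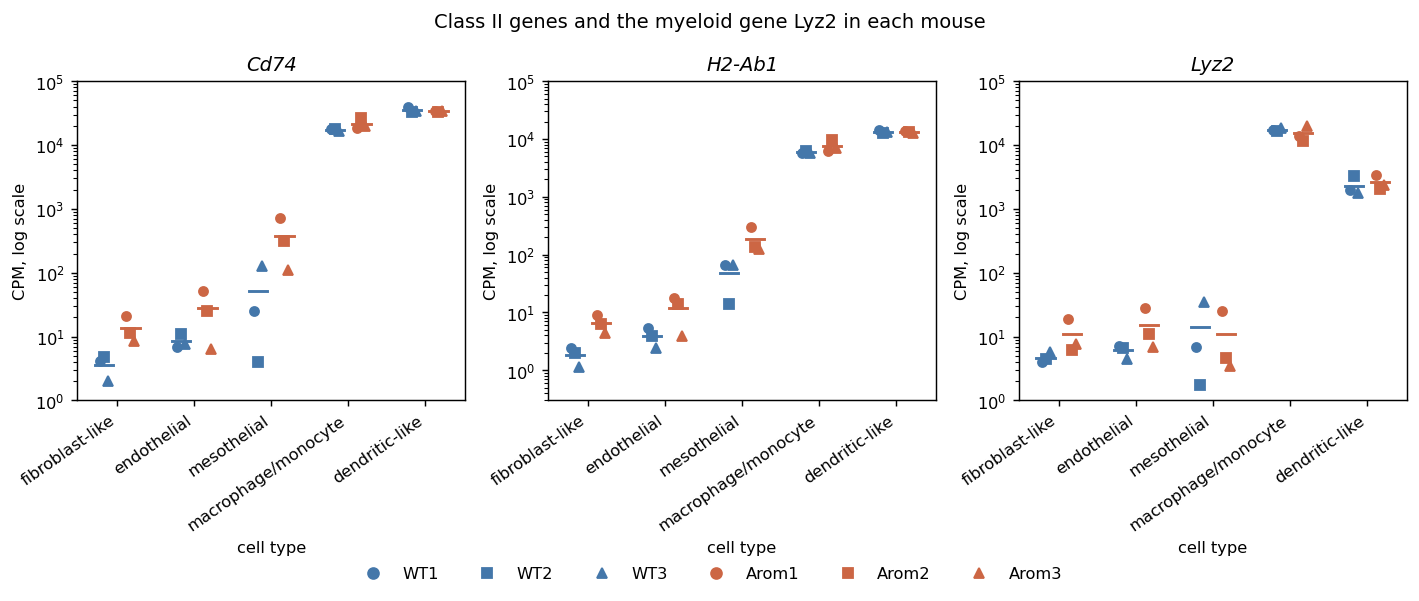
CPM of Cd74, H2-Ab1 and the macrophage gene Lyz2 in each mouse on a logarithmic axis, for 5 cell types along the horizontal axis. Points are mice and bars are group means, with blue for WT and orange for Aromhum and circle, square and triangle for replicates 1, 2 and 3. In mesothelial cells Cd74 spans 3.96 to 129 CPM in the WT and 110.2 to 725 CPM in the Aromhum mice, while Lyz2 overlaps.

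Macrophage/monocyte cells had no member called of 24 and no gene at all (percent called 0), and 1 member at an unadjusted p under 0.05, beside 6.06% of all genes. DESeq2 called no member either. Cd74 was at 17820.4, 17922 and 16356 CPM in the WT mice and 18619.6, 26184 and 19719.6 CPM in the Aromhum mice and H2-Ab1 at 5718, 6323 and 5632 CPM in WT1 to WT3 against 6291, 9424 and 7019 CPM in Arom1 to Arom3, with Arom2 highest for both (log2 fold change 0.35 ± 0.21 SE, adjusted p = 0.88 for Cd74). H2-K1 was at 1543, 1540.2 and 1679 CPM in the WT mice and 2487, 1732 and 1467 CPM in the Aromhum mice and H2-Q4 at 79.9, 90.4 and 115 CPM in the WT and 75.1, 49.2 and 98.5 CPM in the Aromhum mice, each overlapping. H2-Q7 had the largest log2 fold change of the 24, at 43.2, 51.8 and 57.3 CPM in the WT mice and 174, 76.2 and 62.6 CPM in the Aromhum mice, and did not pass (log2 fold change 1.12 ± 0.40 SE, adjusted p = 0.80). In simulated counts of this comparison, 21.9% of genes with a 2-fold change and 98.1% of those with a 4-fold change were recovered. Macrophage/monocyte and dendritic-like cells together held 67.9% to 79.5% (lowest and highest mouse) of all Cd74 UMIs.

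Smooth muscle and pericyte cells gave 1 call of 19 members in edgeR, H2-M9, beside 2.29% of all genes. An unadjusted p under 0.05 was found for 11 members, beside 21.2% of all genes. The 3 classical class I genes all lay above 0, with a median log2 fold change of 0.51 and no call. The replicate block gave 5 calls, B2m, Cd74, H2-Ab1, H2-K1 and H2-M9, beside 8.29% of all genes. Without the filter on low counts 3 were called, Cd74, H2-Ab1 and H2-M9, beside 4.01%. H2-M9, a nonclassical class I gene at chr17:36639285-36642666 on the minus strand, was at 123, 138 and 77.7 CPM in WT1 to WT3 against 228, 248 and 226 CPM in Arom1 to Arom3, without overlap (log2 fold change 0.99 ± 0.19 SE, adjusted p = 0.031). In every mouse the gene was highest in 1 of the 3 clusters of this type. In that cluster it was at 380.0, 591 and 336 CPM in the WT mice and 374, 375 and 653 CPM in the Aromhum mice, overlapping and with a log2 fold change of -0.04 (adjusted p = 0.98, with 0% of all genes called). The cluster held 25.1% of the cells of this type in the WT mice and 46.2% in the Aromhum mice, with Arom3 at 31.2% just below WT1 at 32.8%. In the cluster led by Rgs5, Kcnj8 and Abcc9, pericyte genes, H2-M9 was at 9.16, 12.7 and 0 CPM in the WT mice and 0, 234 and 0 CPM in the Aromhum mice, and in the remaining cluster at 0, 0 and 0 CPM in the WT mice and 3.35, 8.17 and 0 CPM in the Aromhum mice. The call over the whole type was lost when WT1, WT2, WT3, Arom1 or Arom2 was left out (0 members called), and 8 of 20 members were called without Arom3, beside 12.1% of all genes. In these cells the 12 macrophage/monocyte markers summed to 29.0, 26.7 and 13.5 CPM in the WT mice and 60.8, 79.3 and 21.5 CPM in the Aromhum mice. Their part in the Cd74 and H2-Ab1 values was not tested.

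**Figure D5:**
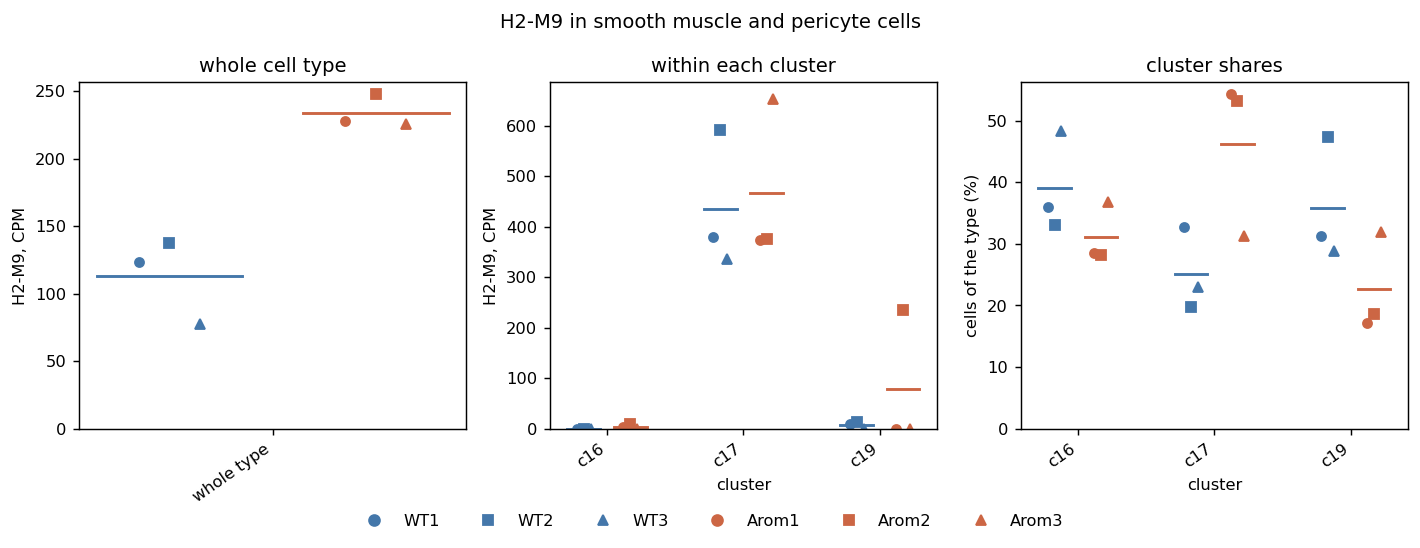
H2-M9 in smooth muscle and pericyte cells, as CPM per mouse over the whole type, as CPM per mouse within its 3 clusters, and as the share of each cluster in the type (percent). Points are mice and bars are group means. Over the whole type the Aromhum mice (226 to 248 CPM) lie above the WT mice (77.7 to 138 CPM), while within the cluster that carries the gene they overlap.

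Summed over all kept cells, 7 of 32 members tested fell in the Aromhum mice in edgeR and 0 rose, beside 23.5% of all genes that were called and 11.2% that fell. They were H2-Q4, H2-T24, B2m and 4 of the 5 peptide supply genes, Tap1, Tap2, Psmb8 and Psmb9. H2-Q4 was at 146, 187 and 200.1 CPM in the WT mice and 55.3, 40.4 and 96.7 CPM in the Aromhum mice (log2 fold change -1.45 ± 0.30 SE, adjusted p = 0.025), B2m at 827, 1056 and 913 CPM in the WT and 708, 551 and 619.7 CPM in the Aromhum mice (log2 fold change -0.54 ± 0.14 SE, adjusted p = 0.040) and Psmb9 at 40.4, 56.2 and 36.9 CPM in the WT mice and 26.9, 19.2 and 23.4 CPM in the Aromhum mice (log2 fold change -0.90 ± 0.19 SE, adjusted p = 0.026). H2-Q4, B2m and Psmb9, called on these same values, did not overlap between the groups. The log2 fold changes were -0.95 for Tap1, -0.63 for Tap2, -0.59 for Psmb8 and -2.18 for H2-T24. The 3 classical class II genes and 5 class II loading genes, H2-Oa and H2-Ob left aside, had a log2 fold change above 0 over all cells, and none was called. The median of the 3 was 0.99, beside 0.02 over all genes. With the replicate block 15 members were called, Cd74, Ciita, H2-Aa, H2-Ab1, H2-DMa, H2-DMb1 and H2-Eb1 among them, and B2m was not, beside 26.2% of all genes called in that fit. DESeq2 called 11, the 7 above with H2-Q2, H2-Q6, H2-T23 and Tapbp, beside 34.0% of all genes. The log2 fold change of Tapbp in edgeR was above 0.

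The sum over all cells mixes the level in a cell with the number of cells, and fewer cells of a type and less RNA per cell cannot be told apart in it. Endothelial cells, at 34.0% of the WT and 17.5% of the Aromhum cells, gave a mean share of all Psmb9 UMIs of 53.8% in the WT mice and 28.7% in the Aromhum mice. For Psmb8 their share was 51.5% in the WT mice and 29.1% in the Aromhum mice, for B2m 41.4% in the WT mice and 19.4% in the Aromhum mice and for Tap2 41.2% in the WT mice and 21.3% in the Aromhum mice. None of these 4 genes was called within endothelial cells without the replicate block, and Psmb9 was called with it. The calls of B2m and Psmb8 were lost when any 1 mouse was left out, that of Tap1 in all cases but without Arom3, and those of Psmb9, Tap2, H2-Q4 and H2-T24 without WT2, WT3, Arom1 or Arom2. The count was 0 without any of these 4 mice, 4 without WT1 and 9 without Arom3, beside 30.8% of all genes called without Arom3. Within the study's cell limits 0 of 13630 genes were called and Psmb8 was at 0.10.

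Other genes of the pathway were counted from 2 lists. Of 30 genes that serve antigen presentation outside the 33, 9 rose and 1 fell over all cells, beside 23.5% of all genes called. In fibroblast-like cells 5 of 29 rose, beside 7.25% of all genes, among them the costimulatory gene Cd80 (log2 fold change 1.97), the endosomal protease Ctsb (0.55) and the ubiquitin ligase March8 (0.79), which removes class II from the cell surface, and Rfxap, a class II promoter factor, fell by 0.47. In endothelial cells 6 of 27 rose and 1 fell, beside 14.8% of all genes called, with the lysosomal proteases Lgmn (1.59), Ctsb (0.62) and Ctsd (0.55) among them, and the neonatal Fc receptor Fcgrt, which is shaped like class I, fell by 0.58. The same 3 proteases and March8 rose in muscle stem cell/myoblast cells, 4 of 21 tested, beside 3.13% of all genes called. The macrophage/monocyte marker sums given above were higher in the Aromhum mice in fibroblast-like and muscle stem cell/myoblast cells without overlap, and in endothelial cells they overlapped, with Arom3 among the WT mice. Their part in the protease and Cd80 values was not tested. None of 27 passed in macrophage/monocyte cells, where 0% of all genes were called.

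Interferon response genes fell over all cells in 22 of 41 cases and rose in 1, beside 11.2% of all genes that fell, with a median log2 fold change of -0.84 beside 0.02 over all genes. In fibroblast-like cells 7 of 39 fell and 0 rose, beside 5.82% of all genes that fell, with a median of -0.37 beside 0.01. They were Stat2 (-1.20) and Irf9 (-1.03), which form the interferon-activated factor that binds the response element, the feedback inhibitors Socs3 (-1.42) and Socs1 (-0.54), the effectors Gbp4 and Ifit2, and the receptor gene Ifngr1 (-0.52). Endothelial cells did not show one direction, with Gbp2, Ifngr2 and Jak2 higher and Socs1 and Tgtp2 lower, 5 of 41 beside 14.8% of all genes. In muscle stem cell/myoblast cells Socs1 (-2.07), Irf8 and Irf9 fell and Ifnar1 rose, 4 of 27 beside 3.13% of all genes.

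Some members were too rare to test within cell types. H2-Q1 was tested over all cells alone, at 0.459, 0.486 and 0.371 CPM in WT1 to WT3 against 0.275, 0.306 and 0.390 CPM in Arom1 to Arom3 (log2 fold change -0.41 ± 0.38 SE, adjusted p = 0.46). H2-Oa and H2-Ob, the paired chains that restrain DM, were likewise tested over all cells and not called (adjusted p = 0.45 and 0.61). They were seen in 88 and 96 barcodes of Arom1 and 68 and 79 of Arom2 and were listed at 0 in Arom3 and WT3. In WT1 they had 23 and 25 barcodes, and in WT2 0 and 26. H2-M5 was not tested and was seen in 21 barcodes of WT3 alone. Because genes below about 20 barcodes were missing from a library, no fold is given for H2-Oa, H2-Ob and H2-M5.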

How the data were processed

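Mononucleated LAM cells from 3 WT and 3 Aromhum mice were profiled by 10x Genomics 3' single-cell RNA sequencing. The authors deposited raw UMI counts for 16494 genes and 63647 barcodes, and Cell Ranger 3.0.2 and the mm10 build are named in the submitters' processing notes. The paper gives alignment to the mouse genome with human CYP19A1 added. How genes were filtered is not given in the sources used here. In a library, 1 to 18 genes were seen in 1 to 19 barcodes (147 in WT2) and 848 to 1290 in 20 to 39, so zeros may hide such genes. No normalization had been applied to the deposited counts.

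Groups and replicate numbers came from the labels. Barcodes with at least 200 genes and 1000 UMIs were kept, and the study's further limits, at most 2500 genes and 5% mitochondrial counts, were an alternative because they retain 18852 of 59227 cells. The study's removal of outliers by median absolute deviation was not repeated. Cells were clustered on 2000 variable genes and 30 principal components with the 33 members left out, and named from marker lists that held none of them. The graph of shared neighbours used 20 neighbours (scikit-learn 1.9.0) and was split with leidenalg 0.10.2 at resolution 0.8. Scrublet scores (scanpy 1.11.5) of at least 0.25 marked 1.15% to 2.34% of cells per library as doublets, which stayed in the main tests and were removed in an alternative.

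UMI counts were summed per mouse and cell type and tested with edgeR 4.0.16 (R 4.3.3) over all genes, with TMM factors, filterByExpr and an adjusted p under 0.05. DESeq2 1.42.0 and limma 3.58.1 served alternatives. CPM values are summed counts per 1e+06 summed UMIs. In simulated counts, 65.3% of 2-fold and 98.0% of 4-fold changes were recovered in fibroblast-like cells (13955 genes), and 79.8% and 100% in endothelial cells (12036 genes). Intervals between groups rest on 3 mice each. The smallest exact permutation p with 3 against 3 mice is 0.1, so single values were not tested alone.

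Members and lists were chosen with earlier results of these data known. Every member was counted, values per mouse were given for the main genes of each role and for called members, and genes outside the 33 were named from 2 lists or as markers. According to the study's methods 1 WT and 1 Aromhum littermate were processed on each date, but the labels do not tie numbers to dates. Deviations of same-numbered mice correlated above 0.1 for every pair in 3 of 10 fits, endothelial (0.15 to 0.32), muscle stem cell/myoblast (0.11 to 0.20) and myonuclei (0.14 to 0.24), and blocked counts stand beside those. The promoters are from RefSeq (GRCm38.p6), and positions of genes from the GRCm38 annotation.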

Additional observations from a re-analysis of the deposited data

Results flagged for a closer look

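Genotype effects differed between endothelial and fibroblast-like cells for 3 of 27 members, near the share of all genes at 11.6%, and between macrophage/monocyte and fibroblast-like cells for 1 of 29, beside 0.4%. The test was of the difference itself in edgeR with the mouse as a term. For H2-Q4 the log2 fold change was -0.59 in endothelial and -1.57 in fibroblast-like cells, a difference of 0.98 (adjusted p = 0.010). For H2-Q6 it was -0.48 and -1.57, and the joint fit gave a difference of 1.15 (adjusted p = 0.011). The Nlrc5 difference was 1.16 (adjusted p = 0.025), with 0.64 in endothelial and -0.58 in fibroblast-like cells, where its level was below 1 CPM. Within the 4 endothelial clusters the log2 fold changes of Nlrc5 ran from -0.49 to -0.02, and the cluster where it was highest made up 13.2% of the endothelial cells in the WT and 38.8% in the Aromhum mice. Between macrophage/monocyte cells (-0.32) and fibroblast-like cells, H2-Q4 differed by 1.45 (adjusted p = 0.037). Between endothelial and fibroblast-like cells H2-Q4 passed in 6 of 6 fits that left out 1 mouse and H2-Q6 in 5 of 6, whereas Nlrc5 and the macrophage/monocyte difference passed in 1 of 6. All these fits used sums over whole types, and the part of the shifted cluster shares in the H2-Q4 and H2-Q6 differences was not tested.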

How the results depend on the processing

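Of 282 values of 23 named results under alternative processing, 152 kept their direction and side of the threshold, 128 kept direction but lost the call and 2 reversed. The reversed were Psmb8 in all cells (0.10) and H2-M3 in fibroblast-like cells (0.054), both within the study's cell limits. Of 24 values inside single clusters, added after the data were seen, 7 kept their call, 14 lost it, 1 gained one and 2 reversed. The gained call was of H2-Q4, lower in the Aromhum mice in an endothelial cluster. The reversed were Cd74 in the Dmkn fibroblast cluster (-0.20) and H2-M9 in its main smooth muscle cluster (-0.036).

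The number of members called changed as follows, and the cause was not tested. Within the study's limits 0 were called in all cells, 0 in fibroblast-like, 0 in endothelial and 0 in other types, 0 in the endothelial and 3 in the macrophage/monocyte difference. Of all genes, 0.0% were called there in all cells, 0.00917% in fibroblast-like and 7.86% in endothelial cells. These limits retain 16.0% to 41.3% of the cells of a mouse, and smooth muscle, mesothelial and glial cells were not run with them (15, 8 and 10 cells in the smallest library). They moved H2-K1 in fibroblast-like cells to 611 CPM, Cd74 in macrophage/monocyte cells to 24032 CPM and H2-M9 in smooth muscle and pericyte cells to 489 CPM. DESeq2 called 11 in all cells, beside 34.0% of all genes, and 1 in mesothelial cells, beside 5.51%. In other types it called 5, beside 0.21% to 4.33% of all genes in a type. Without the filter on low counts 3 were called in smooth muscle and pericyte cells, 8 in other types and 2 in the macrophage/monocyte difference. Of all genes, 4.01% were called in smooth muscle and pericyte cells and 0.623% to 5.23% in each of the other types. In fibroblast-like cells the fit without the filter gave 5, with H2-T23 and H2-T24 lost, beside 8.89% of all genes. DESeq2 gave 8 there, with H2-T24 lost and B2m and H2-Q6 gained, beside 20.6%. With clusters given equal weight (limma) 3 were called in fibroblast-like cells, H2-Aa, H2-Ab1 and H2-Q4, beside 5.5% of all genes. In endothelial cells 1 was called, H2-Q4 in place of H2-Ab1 and H2-T24, beside 1.86%. Leiden resolution 1.2 left 1 in endothelial cells.

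With the replicate number as a block 15 were called in all cells, 7 in endothelial, 5 in smooth muscle and pericyte, 2 in mesothelial and 7 in other types, and the count in fibroblast-like and macrophage/monocyte cells was the same as without it (7 and 0). Of all genes, the block gave 26.2% in all cells, 24.2% in endothelial, 8.29% in smooth muscle and pericyte and 3.66% in mesothelial cells. It gave 0.0131% to 7.36% in each of the other types, 10.0% in fibroblast-like and 0.0% in macrophage/monocyte cells. In fibroblast-like cells 5 of the 7 were shared, with H2-T23 and H2-T24 lost and H2-Q6 and Tap1 gained. Every sample correlated best with its own number in 3 of 10 fits. The difference tests hold the mouse as a term already.

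Leaving out 1 mouse gave 0 to 9 members in all cells, 0 to 11 in fibroblast-like, 0 to 8 in endothelial, 0 to 8 in smooth muscle and pericyte, 0 to 5 in mesothelial, 0 to 0 in macrophage/monocyte and 0 to 7 in other types. The endothelial difference gave 1 to 5 and the macrophage/monocyte difference 0 to 9. The highest count came without Arom3 in each except macrophage/monocyte cells. Of all genes, 30.8% were called without Arom3 in all cells, 29.6% in fibroblast-like and 14.8% in endothelial cells. The share was 12.1% in smooth muscle and pericyte, 13.3% in mesothelial and 0.0128% to 12.4% in each of the other types. Depth limits rare members, H2-T24, Nlrc5 and several class II genes outside immune cells among them.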

Other observations

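Outside the immune cells, H2-Eb1 was highest in smooth muscle and pericyte cells, at 9.68 ± 2.23 CPM over 6 mice, against 433 ± 86.3 CPM in dendritic-like and 261 ± 53.3 CPM in macrophage/monocyte cells. Within that type it was highest in the cluster led by Rgs5, Kcnj8 and Abcc9, at 33.6, 23.8 and 29.5 CPM in the WT mice and 50.2, 13.8 and 27.8 CPM in the Aromhum mice. The groups overlapped there, and the other clusters ranged from 0 to 3.02 CPM and from 4.21 to 15.8 CPM. The alpha chain H2-Aa was listed at 0 in WT1 and WT3 and at 4.76 CPM in WT2 in the same cluster. This pattern was chosen after its values were seen and was not tested.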
